A study of Mus musculus with 2 samples.

Results

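The interleukin-4 and interleukin-13 receptor pathway was followed through 9 genes of the 49492 in the count table: the receptor chains Il4ra, Il13ra1, Il13ra2 and Il2rg, the Janus kinases Jak1, Jak3 and Tyk2, the transcription factor Stat6 and the classical target gene Arg1. They were picked by name, for their place in the pathway, but with earlier results of these data known. All 9 had enough reads to be tested. Mammary basal cells of wild-type adult female mice were sorted by flow cytometry and grown in a 3D matrix, without treatment (ctrl) or with M2-like macrophages (M2), and the RNA of each culture was sequenced. Per the methods of the study, these macrophages came from the bone marrow of C57/B6 mice and were polarised with IL-4 and IL-13, which are the ligands of these receptors. They were then moved to an insert with a porous membrane above the matrix and were replaced repeatedly over 11 to 14 days of co-culture. The sort left out cells with blood, endothelial and red cell surface markers, and the labels do not say how many mice or cultures a library came from. Each group holds 1 library, with 26912610 reads in genes for ctrl and 29413844 for M2, so the spread between cultures is unknown, and every test compares those libraries, not the conditions. Intervals are 95% intervals that cover counting error only. In a bulk library, fewer cells of a type and less RNA per cell cannot be told apart.

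IL-4 and IL-13 signal through a shared chain, IL-4Rα. Paired with the common gamma chain encoded by Il2rg it forms the type I receptor, which binds IL-4 and is typical of blood cells, and paired with IL-13Rα1 it forms the type II receptor, which binds both cytokines and is common on epithelial cells. IL-13Rα2 binds IL-13 tightly and is often described as a decoy. JAK3 associates with the common gamma chain, TYK2 with IL-13Rα1 and JAK1 with IL-4Rα, and the kinases phosphorylate STAT6, which moves to the nucleus and binds DNA.

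The 250 bases before the start site are shown for the 2 pathway genes that were called in the comparison, Il2rg and Il13ra2, and for Fcer2a, which encodes the low-affinity IgE receptor and is a known STAT6 target with a match to the STAT6 motif. The windows come from RefSeq on GRCm38.p6, all 3 lie on the minus strand, and no exon in the count table overlaps them. Capitals mark the ETS motif CCGGAA in Il2rg (chrX:101268256-101268505), the TATA box letters TATAAA and the AP-1 motif TGANTCA in Il13ra2 (chrX:147429193-147429442), and the STAT6 motif TTCNNNNGAA in Fcer2a (chr8:3690862-3691111, 1 of 3 windows of this gene).
Il2rg: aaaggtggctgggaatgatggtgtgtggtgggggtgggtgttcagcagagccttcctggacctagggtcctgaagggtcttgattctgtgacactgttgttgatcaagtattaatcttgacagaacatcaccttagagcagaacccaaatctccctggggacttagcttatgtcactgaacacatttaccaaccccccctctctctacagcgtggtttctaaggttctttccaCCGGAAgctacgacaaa
Il13ra2: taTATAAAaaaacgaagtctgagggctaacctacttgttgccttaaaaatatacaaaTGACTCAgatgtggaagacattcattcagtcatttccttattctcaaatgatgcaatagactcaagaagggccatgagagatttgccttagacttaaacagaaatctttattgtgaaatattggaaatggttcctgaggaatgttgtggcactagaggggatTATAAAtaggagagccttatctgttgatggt
Fcer2a: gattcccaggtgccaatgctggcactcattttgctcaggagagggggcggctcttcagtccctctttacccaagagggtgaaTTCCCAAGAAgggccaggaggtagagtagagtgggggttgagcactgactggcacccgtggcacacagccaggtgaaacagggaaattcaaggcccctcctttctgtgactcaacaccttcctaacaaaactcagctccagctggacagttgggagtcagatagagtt
The ETS motif of Il2rg begins 17 bases upstream of the start. In Il13ra2 one TATA box match begins 31 bases upstream and another 248 bases upstream, and the AP-1 motif begins 193 bases upstream. The STAT6 motif of Fcer2a begins 168 bases upstream of a start at 3690861. That start lies inside the gene, whose listed first base on the minus strand is 3694175. The window at that outer end of the gene held no match to the STAT6 motif.

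A window of 300 bases, from 250 before to 50 after the start, was matched for 8 of the 9 pathway genes, all except Arg1. The STAT6 motif TTCNNNNGAA, searched on both strands as were the other motifs, was found in 0 of these 8 windows and in 6.95% of all 32851 windows. The related motif with a 3-base spacer, TTCNNNGAA, was found in 0 of 8 and in 8.30% of all windows. TGANTCA was found in 1 (Il13ra2; 7.81% of all windows), TATAAA in 1 (Il13ra2; 13.6%) and CCGGAA in 2 (Il2rg and Stat6; 14.9%). These are matches of letters, and a missing match says only that the letters are not in the window.

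Both libraries held the parts of the type II receptor at far higher levels than the gamma chain of the type I receptor. Levels are given as reads per kilobase of listed exon, scaled to library size (RPKM). In ctrl, Il4ra had the highest level of the 9 genes, 40.9 RPKM, which was higher than 93.3% of the genes tested. Arg1 followed with 37.2 RPKM, Il13ra1 with 27.2, Jak1 with 20.8 and Stat6 with 17.9, then Tyk2 with 2.56 and Jak3 with 1.45. Il2rg, at 0.122 RPKM, and Il13ra2, at 0.0479 RPKM, lay at the bottom, and they were the only neighbours in the ctrl order whose counting intervals overlapped (0.0527 to 0.240 and 0.00987 to 0.140).

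In M2 the order was the same except that Jak3, at 2.28 RPKM, stood above Tyk2, at 2.01 RPKM. The intervals of these neighbours overlapped (2.04 to 2.53 for Jak3 and 1.82 to 2.22 for Tyk2), and those of all other neighbours did not. The distance from the highest gene, Il4ra, to the lowest, Il13ra2, was 855-fold in ctrl, where Il13ra2 rests on 3 reads, and 137-fold in M2. Il2rg moved from above 6.56% of the genes tested in ctrl to above 25.7% in M2, and Il13ra2 from 2.36% to 16.2%, so that both remained among the genes with low levels.

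**Figure D1:**
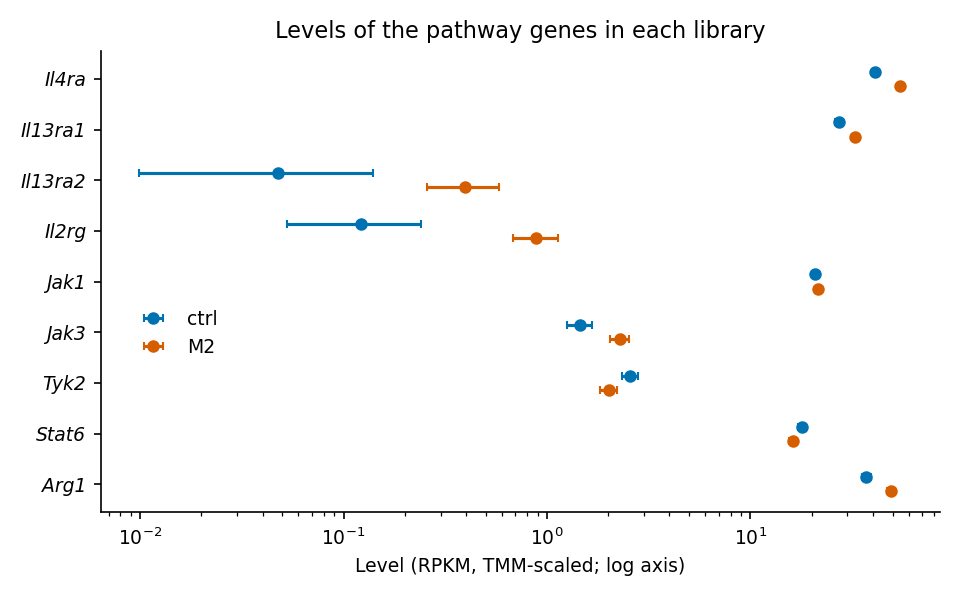
Levels of the 9 pathway genes in ctrl (blue) and M2 (orange), in RPKM on a log axis, with 1 library per point and bars for 95% counting intervals. Il4ra, Arg1, Il13ra1, Jak1 and Stat6 lie between 16.2 and 54.3 RPKM in both libraries, and Il2rg and Il13ra2 lie below 1 RPKM in both.

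To ask which of these genes differed between the libraries, their reads were put to an exact binomial test (two-sided), adjusted by the Benjamini-Hochberg method over all 19233 genes tested. Calls required both a 2-fold difference and an adjusted p under 0.05. Il2rg and Il13ra2 were called higher in M2, none of the 9 was called lower, and the other 7 were not called. Over all genes tested, 8.16% were called higher and 6.55% lower. The median log2 difference (log2 of the fold difference, M2 over ctrl) of the 9 genes was 0.40, against -0.0032 for all genes tested. At any fold difference, 8 of the 9 reached an adjusted p under 0.05, as did 53.1% of all genes tested, since small differences pass at this depth.

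Among the receptor chains, Il4ra (chromosome 7, 125552120 to 125579474, plus strand) had 6746 ctrl and 9390 M2 reads. M2 held the higher level, 54.3 RPKM against 40.9, and the log2 difference was 0.41 (0.36 to 0.45), or 1.33-fold, short of the 2-fold threshold. Il13ra1 (chromosome X, 36112110 to 36171259, plus strand), its partner in the type II receptor, had 2773 and 3500 reads and a log2 difference of 0.27 (0.19 to 0.34). The upper limits of both intervals lay under 2-fold.

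Il2rg (chromosome X, 101264378 to 101268255, minus strand), which encodes the common gamma chain, had 8 ctrl and 61 M2 reads. The log2 difference was 2.72 (1.79 to 4.14), or 7.27-fold, with an adjusted p of 4.23e-10 by the exact binomial test. The M2 level was still only 0.887 RPKM. Of its 2387 exon bases, 728 (30.5%) also belong to Gm20489, a protein-coding gene listed on the same strand that had 1 read in ctrl and 25 in M2, so the reads of the shared stretch are uncertain.

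Il13ra2 (chromosome X, 147383476 to 147429192, minus strand), the decoy chain, had 3 ctrl and 26 M2 reads. With so few ctrl reads the log2 difference of 2.69 had a wide interval, 1.34 to 5.41, and the adjusted p was 5.5e-05 by the exact binomial test. The M2 level was 0.396 RPKM, the lowest of the 9 genes in that library too. No other listed gene shares its exons.

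The calls of both chains rest on counting error alone. When genes were also assumed to vary between cultures, with a biological coefficient of variation (BCV) of 0.2 in the exactTest of edgeR, the adjusted p was 0.000245 for Il2rg and 0.0103 for Il13ra2, and both kept their call, while 5.01% of all genes were called higher and 3.59% lower. With an assumed BCV of 0.4 the adjusted p was 0.192 for Il2rg and 0.369 for Il13ra2, and neither was called, while 0.91% of all genes were called higher and 0.676% lower.

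**Figure D2:**
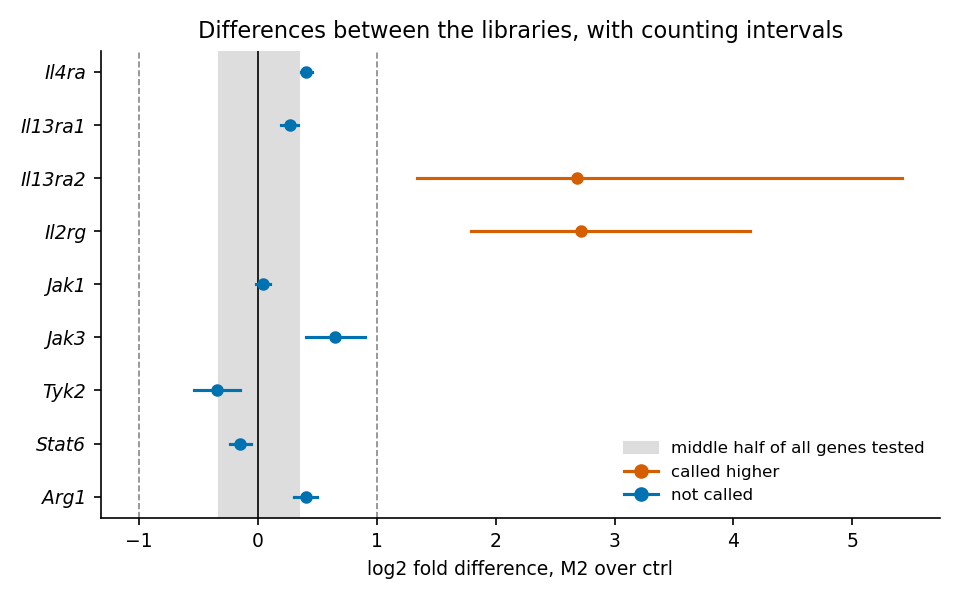
Log2 differences of the 9 pathway genes, M2 over ctrl, with 95% counting intervals, 1 library per group. The dashed lines mark 2-fold, the grey band runs from the lower to the upper quartile of all genes tested (-0.32 to 0.35), and Il2rg (2.72) and Il13ra2 (2.69) lie outside the dashed lines.

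Of the kinases, Jak1 (chromosome 4, 101152367 to 101265282, minus strand), which serves both receptor types, had 4125 ctrl and 4461 M2 reads. Its log2 difference of 0.04 had an interval that spanned 0 (-0.02 to 0.11), the adjusted p was 0.238 by the exact binomial test, and the value was -0.02 when libraries were scaled by total reads. Jak3 (chromosome 8, 71676296 to 71690575, plus strand), the partner of the gamma chain, had 213 and 351 reads and a log2 difference of 0.65 (0.40 to 0.90), or 1.57-fold. It had the largest difference of the 7 genes that were not called. Its exons share 404 bases with Insl3 on the same strand, which had 2 and 14 reads.

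Tyk2 (chromosome 9, 21104068 to 21131243, minus strand), the partner of IL-13Rα1, had 482 ctrl and 398 M2 reads. The log2 difference was -0.34 (-0.54 to -0.15). Stat6 (chromosome 10, 127642986 to 127660957, plus strand) had 2169 and 2056 reads and a log2 difference of -0.15 (-0.23 to -0.06), or 0.904-fold. These were the 2 genes of the pathway with the lower level in M2, each by less than 2-fold. Exons on the opposite strand overlap Tyk2 by 554 bases (1700084C06Rik), Il4ra by 571 (Gm44876), Stat6 by 40 (Nab2) and Jak1 by 4 (Raver2), and since the use of strand is not given, reads of these stretches cannot be assigned with certainty.

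Arg1 (chromosome 10, 24915208 to 24927470, minus strand), which encodes the arginase that splits arginine into ornithine and urea and is a common marker of M2-like macrophages, had 1507 ctrl and 2090 M2 reads. Thus the ctrl library, from cells cultured without macrophages, already held 37.2 RPKM of Arg1, against 49.1 RPKM in M2. The log2 difference was 0.40 (0.31 to 0.50), or 1.32-fold, and was not called. Arg2, which encodes the mitochondrial arginase, had 54 and 79 reads, a log2 difference of 0.47 (-0.04 to 1.01).

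The balance within the receptor and within the kinases was then compared as ratios per exon length, which do not depend on library scaling. Each of 6 ratios was tested with a two-sided Fisher's exact test, adjusted over the 6. Il2rg was 0.449% of Il13ra1 in ctrl and 2.71% in M2, which is a log2 change of 2.59 (1.52 to 3.87), adjusted p = 6.47e-08 by Fisher's exact test. Il13ra2 was 0.176% and 1.21% of Il13ra1, a log2 change of 2.78 (1.07 to 5.15) that rests on 3 ctrl reads of Il13ra2. Per listed exon length, the gamma chain and the decoy chain were thus a small part of Il13ra1 in both libraries. The share of Il2rg depends on the length used, since part of its exons is shared with Gm20489. With all its reads set on its unshared bases, Il2rg had 1.28 RPKM in M2, against 32.7 RPKM for Il13ra1, a larger share than 2.71%.

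Il4ra stood at 1.50 times the level of Il13ra1 in ctrl and 1.66 times in M2, for a log2 change of 0.14 (0.06 to 0.23). Jak3 was 6.97% of Jak1 in ctrl and 10.6% in M2, for a log2 change of 0.61 (0.35 to 0.87). Tyk2 was 12.3% and 9.39% of Jak1, a log2 change of -0.39 (-0.59 to -0.18). The ratio of Arg1 to Arg2 was 27.0 and 25.6, and its log2 change of -0.08 (-0.61 to 0.45) had an adjusted p of 0.789 by Fisher's exact test. The other 5 ratios reached an adjusted p under 0.05 by the same exact test. This test has no fold threshold and counts reads only, ratios of other genes were not examined, and 53.1% of single genes passed the binomial test at any fold, so little can be read from that count.

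The genes around the pathway were described with 9 lists. Of 106 genes tested in these lists together, M2 was called higher in 18 and lower in 9, and 79 had no call, with a median log2 difference of 0.0034. These are 17.0% higher and 8.49% lower, beside 8.16% and 6.55% of all genes tested, and the lists were chosen with earlier results known. The counts of each list below stand against the same shares of all genes.

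Of 12 cytokine genes, 6 were tested, 2 were called higher and 1 lower, with a median log2 difference of 0.13. Of the ligands of the receptor itself, Il4 was not called, with 42 reads in each library and a log2 difference of -0.07 (-0.72 to 0.58), and Il13 had 1 read in ctrl and 0 in M2, too few to test. Csf2, which encodes the growth factor GM-CSF, had 2 ctrl and 54 M2 reads, and on the log2 scale its interval began at 2.76. Tslp, an epithelial cytokine of type 2 immunity, had 15 and 52 reads, a log2 difference of 1.66 (0.87 to 2.66). Il33, an alarmin of the same response, was called lower, with 2629 and 1356 reads and a log2 difference of -1.02 (-1.12 to -0.93), a call that was lost at an assumed BCV of 0.2 (adjusted p = 0.126 in the edgeR exactTest).

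Of the 11 receptor genes that pair with the gamma chain or belong to type 2 responses, 5 were tested and 1 was called, with a median of -0.17. The called gene was Il1rl1, which encodes the IL-33 receptor, with 19 ctrl and 81 M2 reads and a log2 difference of 1.97 (1.29 to 2.83). The gamma chain receptors Il2ra, Il2rb, Il7r, Il9r and Il21r, named here because they share Il2rg, each had at most 3 reads in either library, whereas Il15ra, whose receptor uses the gamma chain too, had 234 ctrl and 173 M2 reads, a log2 difference of -0.50, and was not called.

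All 7 other Janus kinase and STAT genes were tested, and 1 was called, with a median of 0.06. Stat5a, the main STAT of prolactin signalling, was lower in M2, with 2186 ctrl and 1091 M2 reads and a log2 difference of -1.07 (-1.18 to -0.97), and this call too was lost at a BCV of 0.2 (adjusted p = 0.10 in the edgeR exactTest). Of the 12 adaptors and kinases downstream of the receptor, 1 was called higher, with a median of -0.15. This was Dok2, an adaptor of blood cells, with 5 and 28 reads and a log2 difference of 2.20 (1.03 to 4.15).

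Of 17 feedback and phosphatase genes tested, 1 was called higher (5.88%) and 0 lower, with a median of -0.09. Over all genes tested, 8.16% were called higher and 6.55% lower. Ptpn2, which encodes a phosphatase that removes phosphate from Janus kinases and STATs, had 811 ctrl and 2112 M2 reads, a log2 difference of 1.31 (1.19 to 1.43). Socs1, a STAT-induced inhibitor that was chosen with its values in view, had 26 and 38 reads and was not called. Of 8 STAT6 cofactor genes, 1 was called higher, with a median of -0.03. This was Parp14, with 1081 and 2855 reads and a log2 difference of 1.33 (1.23 to 1.43), whose product is known to act with STAT6.

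Genes listed as STAT6 targets were called in both directions, and whether STAT6 acts on each of them directly was not tested. Of 30 listed from macrophages, 16 were tested, 5 were called higher and 4 lower, with a median of -0.11, and 12 had at most 3 reads in both libraries. The latter included Retnla (1 read in each library) and Chil3 (0 in each), which are classical markers of IL-4 treated macrophages and were picked here with their values known. Flt1, a VEGF receptor, rose from 158 to 3263 reads, a log2 value of 4.29 (4.07 to 4.54). Il1rn, which encodes the IL-1 receptor antagonist, rose from 209 to 3060 reads, a log2 value of 3.80 (3.60 to 4.01).

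Fcer2a, for which the sequence before an internal start is printed above, rose from 20 to 134 reads, a log2 value of 2.62 (1.99 to 3.43). Other targets were lower in M2. Egr2, a transcription factor, fell from 1261 to 512 reads, a log2 value of -1.37 (-1.52 to -1.22). Ppargc1b, a coactivator of mitochondrial genes, fell from 362 to 169 reads, with a value of -1.16, and Alox15, a lipoxygenase, from 43 to 13 reads, with a value of -1.72. The calls of Ppargc1b and Alox15 were lost at a BCV of 0.2 (adjusted p = 0.0785 and 0.0534 in the edgeR exactTest).

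Of 25 targets listed from epithelia, 13 were tested, 5 were called higher and 3 lower, with a median of 0.64. Of the 23 that were matched by name, 9 had at most 3 reads in both libraries. Serpinb2, a serpin induced by IL-13 in airway epithelium, rose from 40 to 724 reads, a log2 value of 4.08 (3.65 to 4.61). Clca2 rose from 9 to 143 reads, with a value of 3.78, and Fcgbp, a mucus protein gene, from 76 to 210 reads, with a value of 1.39. Nos2, which encodes the inducible nitric oxide synthase and also responds to inflammatory cytokines, had 2 ctrl and 142 M2 reads, and on the log2 scale its interval began at 4.20.

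In the other direction, Pou2f3, the master factor of tuft cells, fell from 209 to 42 reads, a log2 value of -2.36 (-2.90 to -1.90). Spdef, a goblet cell factor, fell from 37 to 8 reads, with a value of -2.15. The epithelial list thus held members on both sides, and its median is over the 13 that could be tested only. Over genes that reached 1 CPM in each library the median was 0.16 over 6 genes, and with a pseudocount of 5 it was 0.46. The calls of Foxa3 (8 and 26 reads, higher) and Muc5ac (16 and 4 reads, lower), named here for that reason, were lost at a BCV of 0.2.

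Around Arg1, 23 genes of arginine and polyamine metabolism were tested, 3 were called higher and 0 lower, with a median of 0.39. Besides Nos2, these were Smox, which oxidises spermine, with 655 and 2307 reads and a log2 difference of 1.75 (1.62 to 1.88), and the arginine transporter Slc7a3, with 32 and 101 reads and a value of 1.56. With an assumed BCV of 0.4, the calls left in all 9 lists together were 6 higher (Csf2, Flt1, Il1rn, Serpinb2, Clca2 and Nos2) and 0 lower.

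**Figure D3:**
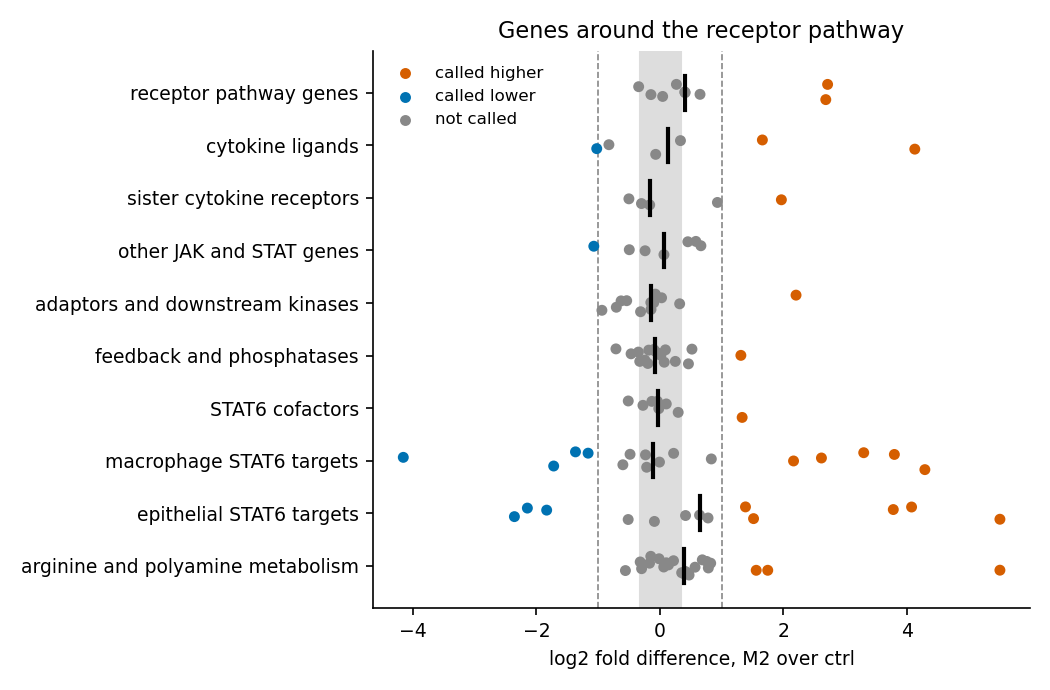
Log2 differences, M2 over ctrl, of the genes tested in each list, with called genes in orange (higher) and blue (lower), a black bar at each list's median and 1 library per group; vertical scatter within a row has no meaning. The dashed lines mark 2-fold and the grey band the middle of all genes tested (-0.32 to 0.35), and the medians run from -0.17 (sister cytokine receptors) to 0.64 (epithelial STAT6 targets).

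Because Il2rg and Arg1 are also expressed by blood cells, markers of such cells were examined beside them. Of 25 macrophage genes, 19 had at most 3 reads in the ctrl library, 15 in the M2 library and 14 in both. The defining genes Adgre1, Tyrobp and Fcer1g had 0 reads in both libraries, Lyz2 had 3 and 1, and Ctss had 5 and 2. Csf1r had 94 and 92 reads and Cd68 170 and 165, and neither was called.

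The summed reads of the macrophage list were 28008 in ctrl and 17732 in M2, almost all from Apoe (26857 and 8227) and Cd14 (803 and 9114), which other cells express too. Without these, the sum was 348 and 391 reads, or 12.7 and 13.6 CPM (counts scaled to library size). Of the 8 macrophage genes tested, however, 3 were called higher (37.5%) and 2 lower (25%), beside 8.16% and 6.55% of all genes tested. Higher in M2 were Cd14 (log2 difference 3.43), Aif1 (3 and 40 reads) and Cd163 (2 and 30). Lower were Apoe (log2 difference -1.78) and Mertk (64 and 32 reads). Mertk was no longer called at a BCV of 0.2, and at 0.4 only Cd14 kept its call. Of 15 lymphocyte and NK cell genes, 12 had at most 3 reads in both libraries, and the called gene was Lck, a T cell kinase, with 24 and 89 reads. The sum of this list was 286 ctrl and 387 M2 reads. The part of such cells in the values of Il2rg was not tested.

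**Figure D4:**
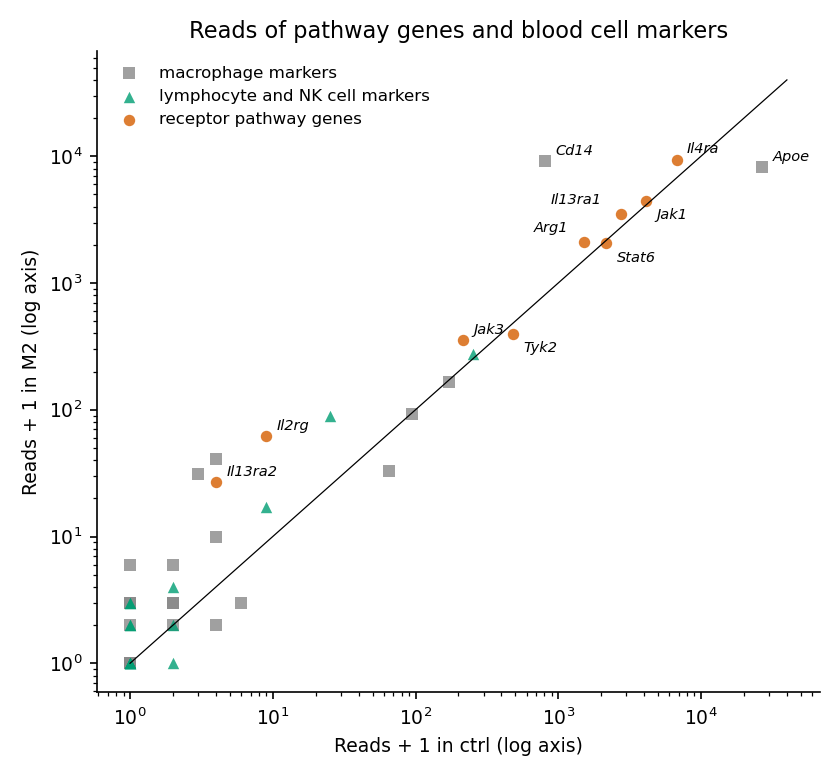
Reads plus 1 in ctrl (x axis) and M2 (y axis), both on log axes, for the 9 pathway genes (orange circles), 25 macrophage markers (grey squares) and 15 lymphocyte and NK cell markers (green triangles); the line marks equal reads. Il2rg (8 and 61 reads) and Il13ra2 (3 and 26 reads) lie above the line, and most blood cell markers lie at 3 reads or fewer in both libraries.

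The epithelial label was checked with further markers. The defining basal keratins Krt14 (81991 and 68968 reads) and Krt5 (56383 and 83619 reads) were abundant in both libraries. All 13 basal epithelium genes were tested, 1 was called higher and 2 lower, with a median of -0.05. The basal stem cell marker Procr had 68 ctrl and 204 M2 reads, and Lgr5 had 3322 and 602 and Oxtr 8324 and 1920. Of 15 luminal genes, 0 were called higher and 7 lower, with a median of -0.78, beside 6.55% of all genes tested that were called lower. These included Kit (15110 and 4973 reads), Elf5 (5704 and 2776), Prlr (3967 and 1379), Pgr (3195 and 575), Foxa1 (2443 and 873) and Areg (1137 and 315). Gata3, which is both a luminal and a type 2 immune factor, had 2971 and 2896 reads, a log2 difference of -0.11 (-0.18 to -0.03), and was not called. The study reported lower Gata3 in the co-culture by RT-qPCR, a different measure from these read counts. At an assumed BCV of 0.2 the luminal calls were 6, without Elf5, and at 0.4 no call of the luminal, basal or lymphocyte and NK cell lists was left. Luminal genes were thus read in both libraries, although the cultures began from cells sorted as basal. Per the study's flow cytometry of colonies grown in these 2 ways, most cells were luminal in both, and basal cells were a minor share. The levels of the receptor genes are therefore those of mixed cultures, and the part of luminal and of basal cells in them was not tested.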

How the data were processed

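The authors deposited raw read counts per gene for both libraries, with no normalization, beside the coordinates and exon length of each gene. The genome build is GRCm38 (mm10) per the submitters' processing notes. The aligner, the counting tool, the annotation and the use of strand are not given in the sources used here. The start and end of 8 of the 9 pathway genes were those of GENCODE M21, and Arg1 differed. Per the labels, a SMARTER mRNA kit was used for the libraries. The title of the series speaks of a microarray, but the deposited values are sequencing counts.

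Groups were taken from the sample titles. Library sizes were scaled by TMM (edgeR 4.0.16, R 4.3.3), with factors of 1.02 for ctrl and 0.980 for M2. Genes with at least 10 reads summed were tested (19233), and the log2 fold difference is that of reads plus a pseudocount of 1 over the effective library size. Tests were two-sided exact binomial tests in SciPy 1.17.1, with Clopper-Pearson intervals. A floor was set at 3 reads (ctrl 0.109 CPM, M2 0.104 CPM), and for genes with 3 reads or fewer in one library the interval or its bound nearest to 0 is given. Ratios were tested with Fisher's exact test. The exactTest of edgeR was run with an assumed BCV of 0.1, 0.2 and 0.4, since no dispersion can be estimated. The functions were tested on simulated data. Motifs were searched in RefSeq promoter windows (GRCm38.p6).

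The pathway genes and all lists were chosen with earlier results of these data known. The text names all pathway genes, each called gene of a list or, above 6, the 6 with the most reads, Il4, Il13, Arg2, Gata3 and Elf5, and a set of macrophage markers, and any other gene was chosen with its values in view. Capn14 and Cst1 of the epithelial list were not matched by name. The table lists 26 genes under dates in place of names, and these are not named.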

Additional observations from a re-analysis of the deposited data

How the results depend on the processing

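Recomputing the pathway genes under 11 alternatives gave 97 values, and 94 of them had the same direction and stayed on the same side of the threshold. Jak1 turned from 0.04 to -0.015 on the log2 scale when libraries were scaled by total reads, and Il2rg and Il13ra2 lost their calls with an assumed BCV of 0.4. Requiring at least 1 CPM in both libraries left out Il2rg and Il13ra2 by construction, so that 0 of the pathway genes were called higher, with 8 higher and 5 lower in the lists and 797 and 583 among all genes. At a 4-fold threshold both chains kept their calls, with 10 higher and 3 lower in the lists and 616 and 494 among all genes. With an assumed BCV of 0.2 there were 4 lower in the lists, and 964 higher and 691 lower among all genes. With 0.4 there were 0 pathway genes higher, 6 higher and 0 lower in the lists, and 175 and 130 among all genes. The other scalings and pseudocounts, the filter at 1 read summed and a BCV of 0.1 kept these counts within 1.5 times, and the 6 ratios kept direction and side when reads were thinned to the smaller library. The order of the levels was the same by TPM and, in an alternative chosen after seeing the data, over exon bases that no other gene shares. Of 98 list medians recomputed, 17 moved by more than 0.1, under other filters or a pseudocount of 5. With genes of at least 1 read, the median of the cytokine genes turned to -0.28 and that of the sister receptors to 0.43, and with at least 1 CPM in both libraries the cytokine median was -0.45 and that of the other Janus kinase and STAT genes -0.09. The median of the epithelial targets was 0.16 under the latter filter, against 0.64. That of the pathway genes was 0.27 over the 7 left by this filter, without Il2rg and Il13ra2, against 0.40 over all 9. No paired analysis was possible because ctrl and M2 have 1 library each. For the same reason no library could be left out, and DESeq2 could not be run as a test. With 8 and 3 reads in ctrl, depth limits the fold differences of Il2rg and Il13ra2.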

Other observations

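The STAT6 motif TTCNNNNGAA was also counted over the genes of the 9 lists. A RefSeq window was matched for 104 of these genes, and 16 of them (15.4%) held the motif in at least 1 window, against 8.01% of all 27025 genes with a window. Several of the lists were drawn up as STAT6 targets and type 2 cytokines, so the genes were not chosen independently of the motif. Among those with the motif, 2 were called higher in M2 (Fcer2a and Il1rn), 2 were called lower (Il33 and Cd36), 6 were not called and 6 had too few reads to be tested. By group, 2 of 12 genes called higher held it, 2 of 5 called lower, 6 of 55 not called and 6 of 32 not tested. These counts are too small to compare the groups, and a match of letters is not a binding site. Il1rn, which had 209 reads in ctrl and 3060 in M2, held the motif at 1 place, 121 bases upstream of a start and 201 bases upstream of another. Both of these starts lie inside the listed gene, and the window near its listed first base held no match to the STAT6 motif. Cd36, a fatty acid transporter, held it after a start that lies inside the listed gene, and had 16 ctrl and 0 M2 reads. Il4 held it 167 bases upstream of a start and had 42 reads in each library. The listed genes here were chosen after the motif matches were seen.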
